A study of Mus musculus with 38 samples.

Results

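Collagens of the fibrillar, basement membrane and type VI classes were followed at their promoters in the soleus muscle of mice before, during and after torpor. The members are the 10 genes *Col1a1*, *Col1a2*, *Col3a1*, *Col5a1* and *Col5a2* (fibrillar), *Col4a1*, *Col4a2* and *Col15a1* (basement membrane), and *Col6a1* and *Col6a2* (type VI). A promoter is a cluster of transcription start sites detected by CAGE, which sequences the capped 5′ end of an RNA and counts 1 tag per RNA molecule. A member's promoter is one whose highest peak is at most 500 bp, on the gene's strand, from a 5′ end that the GENCODE annotation gives it. Each gene had 1 such promoter, so the members are 10 of the 10819 promoters of the series, and 0 of the 10 genes were without one.

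The soleus, a postural leg muscle rich in slow fibres, was taken from male C57BL/6J mice of about 8 weeks, with 1 library per mouse, and 1 or both muscles of a mouse were used. Run 1 has 28 libraries, of which the Pre, Mid and Post libraries are the study's experiment #1. The HiT and Fed mice belong to its torpor-prevention experiment, which reused these Mid mice, and the Dep mice to its torpor-deprivation experiment. The 4 Pre mice were fed ad libitum on day 1, the 8 Mid mice had their food withdrawn on day 2, and the 4 Post mice had food again on day 3. On day 2 there were also 4 HiT mice kept at 32 °C, where all other groups were in a cooler room, 4 Fed mice whose food was not withdrawn, and 4 Dep mice, fasted and kept out of torpor by gentle touch. Run 2, experiment #2 with other mice, has 2 Pre, 5 Mid and 3 Post libraries. Torpor is a controlled fall of metabolism and body temperature, and a fasted mouse goes in and out of it, so a Mid mouse was either torpid or between bouts when sampled. The sources disagree on food, since in the sample labels the Fed mice are starved and in the series text the HiT mice have food, whereas the study's methods describe Fed mice with food and HiT mice without it. The groups here follow the sample titles, and the food follows the methods. All comparisons of run 1 that name the Mid group use the same 8 libraries, and those that name the Pre group the same 4.

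Tags in promoters numbered 18257657 to 39176649 per library in run 1 and 9359994 to 20914855 in run 2. The 10 most abundant promoters took 15.1% to 40.3% of the tags of a library, with the highest share in HiT replicate 4. The 8 marker genes of muscle fibres were all detected, at 23 promoters, with a summed level of 15191 to 22003 CPM in run 1 and 50424 to 74358 CPM in run 2. CPM are tags per 1000000 tags in promoters after TMM scaling, a per-library factor that sets most promoters equal between libraries. Both runs were scaled separately, so a level in run 1 is not on the scale of run 2. The satellite cell markers *Pax7* and *Myf5* had no promoter in the table, nor did 4 of the 5 cell division markers.

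Collagens are trimers wound from 3 chains. The fibrillar types I, III and V form the banded fibres of tendon and of the connective tissue around muscle fibres, with type V inside the fibril as a regulator of its diameter. Type IV is the network collagen of basement membranes, which wrap each muscle fibre and each capillary, type XV is a proteoglycan collagen that joins the basement membrane to the matrix beneath it, and type VI forms beaded filaments between both. In muscle most fibrillar and type VI collagen is made by fibroblasts, and basement membrane collagens are made by several cell types, endothelial cells among them.

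All 10 promoters had their highest peak in the annotated untranslated part of exon 1 of a coding transcript (mm10, 1-based). The type IV genes share one promoter region. *Col4a1*, which encodes the α1 chain, is read from the minus strand with its promoter at chr8:11312518-11313078, and *Col4a2*, which encodes the α2 chain, from the plus strand with its promoter at chr8:11312027-11313254. Their peaks, at 11312751 and 11312876, stand 125 bp apart, and the 2 clusters overlap on opposite strands. The type XV promoter *Col15a1* lies at chr4:47207820-47208386 on the plus strand. Among the fibrillar genes, *Col1a1* lies at chr11:94936142-94936464, *Col1a2* at chr6:4505406-4505923, *Col3a1* at chr1:45311426-45311832 and *Col5a1* at chr2:27886225-27886874, all on the plus strand, and *Col5a2* at chr1:45502832-45503428 on the minus strand. Both type VI promoters lie on the minus strand, *Col6a1* at chr10:76725844-76726100 and *Col6a2* at chr10:76623238-76623541. *Col3a1* and *Col5a2* are neighbours on chromosome 1 that are read toward each other. The 10 clusters were 257 to 1228 bp wide with a median of 539.5 bp, against a median of 281 bp over all 10819.

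The sequences before the starts of *Col3a1*, *Col5a1* and *Col15a1* are shown because the results turn on these genes, and they are unlike each other in base composition. Each holds the 250 bases before the RefSeq start (GRCm38.p6, plus strand, 5′ to 3′), with capitals for matches, on either strand, to the TATA box (TATAAA), the CCAAT box (written with these letters), the GC box with its letters GGGCGG, the E-box, spelled CACGTG, and lastly a C-rich word read as CCCTCCC. They cover chr1:45311288-45311537 for *Col3a1*, chr2:27886175-27886424 for *Col5a1* and chr4:47207762-47208011 for *Col15a1*.
Col3a1: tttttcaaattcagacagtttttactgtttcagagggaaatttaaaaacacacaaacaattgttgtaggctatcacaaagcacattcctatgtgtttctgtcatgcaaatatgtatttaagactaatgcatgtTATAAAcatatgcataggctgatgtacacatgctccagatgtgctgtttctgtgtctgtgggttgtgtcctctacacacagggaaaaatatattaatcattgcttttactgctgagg
Col5a1: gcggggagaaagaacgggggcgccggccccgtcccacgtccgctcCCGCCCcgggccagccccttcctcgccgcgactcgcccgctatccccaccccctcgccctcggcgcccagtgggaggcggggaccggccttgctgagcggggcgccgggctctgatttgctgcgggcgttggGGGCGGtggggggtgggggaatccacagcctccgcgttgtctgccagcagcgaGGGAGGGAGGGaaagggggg
Col15a1: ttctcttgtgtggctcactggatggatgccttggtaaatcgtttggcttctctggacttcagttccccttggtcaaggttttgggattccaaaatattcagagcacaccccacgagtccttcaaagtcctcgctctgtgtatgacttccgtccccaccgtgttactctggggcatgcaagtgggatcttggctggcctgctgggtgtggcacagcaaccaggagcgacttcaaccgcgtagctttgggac
The stretch of 26 bases that lies between the head-to-head peaks of the type IV genes (chr8:11312792-11312817, minus strand) is shown with its GC-rich motifs in capitals.
Col4a1 and Col4a2: CCGCCCgcgcactgccgagGGGAGGG
The *Col3a1* stretch was 35.2% G and C with 0 CpG dinucleotides, and its TATAAA began 117 bases before the RefSeq start and 208 bases before the CAGE peak. The *Col5a1* stretch was 76.4% G and C with 28 CpG, and the *Col15a1* stretch was 53.6% with 8 CpG and held none of the 5 motifs. The CAGE peak lay 27 bases after the RefSeq start for *Col5a1* and 231 bases after it for *Col15a1*. Over the full windows of 300 bases (250 before and 50 after the RefSeq start), all 32851 windows in the RefSeq table had a median of 52.7% G and C with quartiles of 45.7% and 61.7%, so *Col3a1* at 37.7% lay below and *Col5a1* at 75% above the quartiles. Of the 8 member genes with a window, 6 held CCCTCCC (22% of all windows), 5 held GGGCGG (35.7%), 3 held CCAAT (37.4%), 1 held TATAAA (13.6%) and 0 held CACGTG (7.15%). These member counts are not of independent windows. The windows of *Col4a1* and *Col4a2* overlap, and the CCCTCCC and GGGCGG matches of *Col4a1* are sites that were also counted for *Col4a2*. *Col6a2* was searched in more than 1 window. In the member windows a GGGCGG match overlapped a CCCTCCC match in 1 gene, *Col1a2*, and no other pair of motifs overlapped. *Col1a1* and *Col5a2* had no entry. The CAGE peak lay inside the window of 300 bases for *Col5a1* and *Col6a1* only. For the other genes the window ended before the measured peak, so its motifs are those around the RefSeq start.

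CAGE counts 1 tag per RNA, so levels were set side by side between genes without a correction for length. The order given here is that of run 1 and was another one in run 2. In the Pre mice of run 2 *Col3a1* at a mean of 309 CPM stood above *Col1a2* at 231 CPM. There *Col4a1* at 69.1 CPM stood below *Col4a2* at 115 CPM. In the fed baseline of run 1 the order was led by *Col1a1*, the α1 chain of type I, at 1425 ± 182 CPM (SD, n = 4), and over the 28 libraries of run 1 its promoter ranked 76 of 10819 by mean level. *Col1a2*, its α2 chain, stood at 285 ± 28.7 CPM (SD, n = 4), *Col4a1* at 252 ± 13.3 CPM (SD, n = 4) and *Col3a1*, the only chain of type III, at 216 ± 57.8 CPM (SD, n = 4). These last 3 did not differ beyond their spread, since the range of *Col4a1* (233 to 263 CPM) lay across those of its neighbours. Then came *Col4a2* at 153 ± 4.31 CPM (SD, n = 4) and *Col6a1*, the α1 chain of type VI, at 107 ± 8.61 CPM (SD, n = 4), each clear of its neighbours. *Col5a2* at 58.0 ± 5.32 CPM (SD, n = 4) and *Col6a2* at 52.3 ± 5.16 CPM (SD, n = 4) overlapped, as did *Col15a1* at 26.9 ± 5.48 CPM (SD, n = 4) and *Col5a1* at 22.3 ± 4.96 CPM (SD, n = 4). In the HiT group the order was another one, with *Col3a1* in the second place at 1011 ± 279 CPM (SD, n = 4) behind *Col1a1* at 2219 ± 742 CPM (SD, n = 4).

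**Figure D1:**
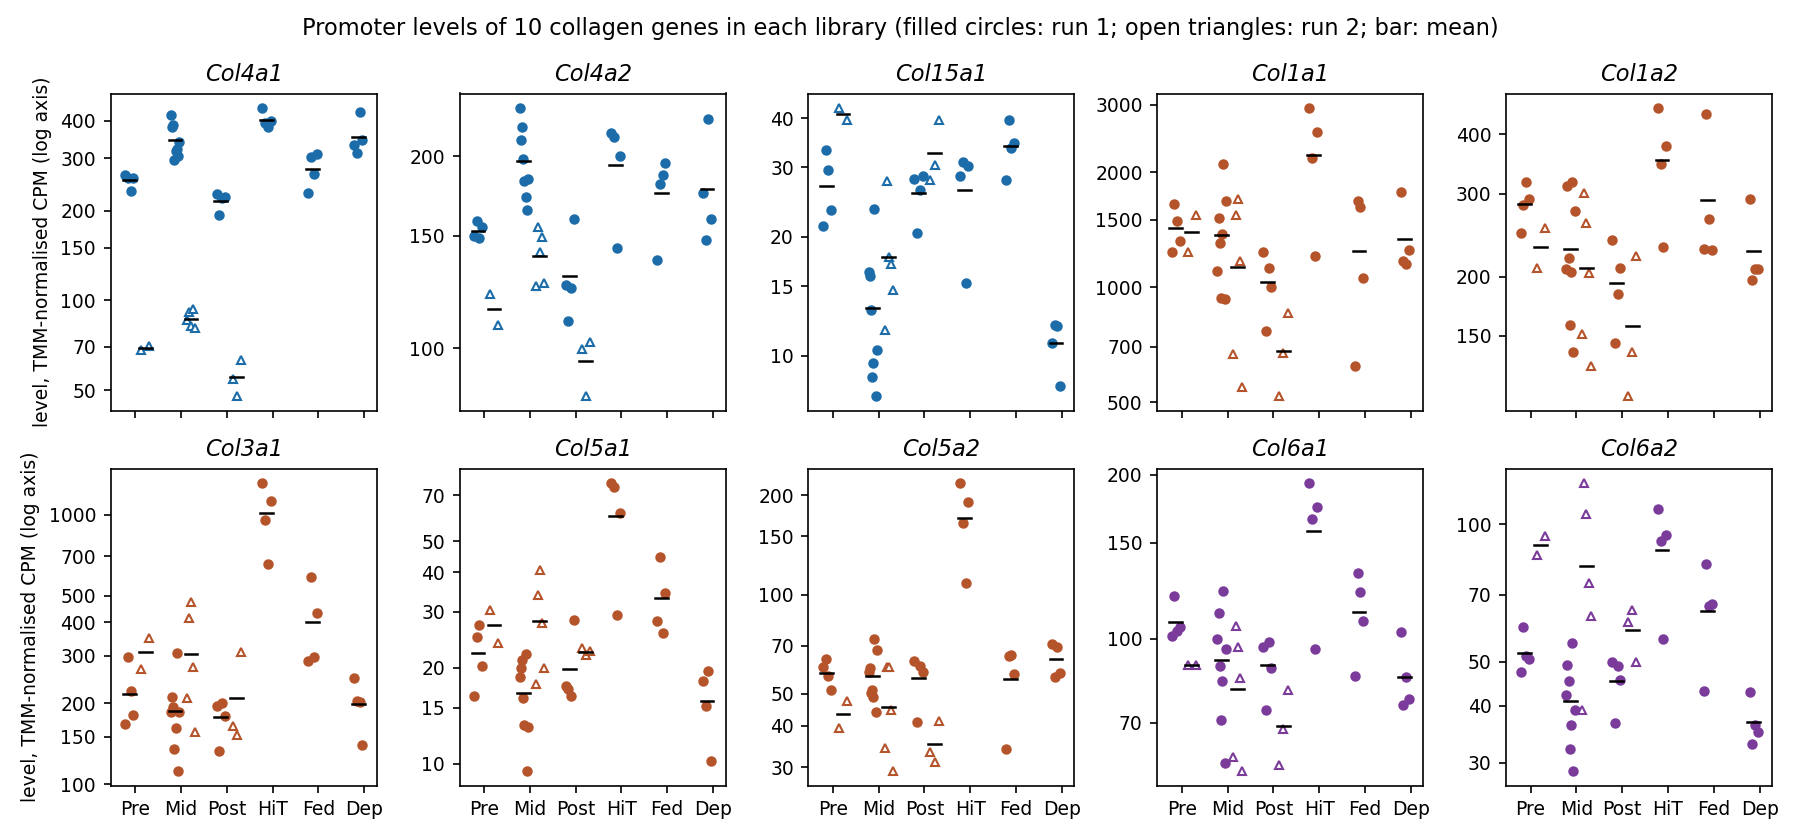
Level of each collagen promoter (TMM-normalised CPM, log axis) in every library, by group. Filled circles are run 1, open triangles run 2, bars the group means, and colours mark basement membrane (blue), fibrillar (orange) and type VI (purple) genes. *Col4a1* was higher in all 8 Mid than in all 4 Pre libraries of run 1, *Col15a1* was lowest in the Mid and Dep groups, and *Col3a1* reached 655 to 1310 CPM in the HiT group.

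The type IV collagen genes rose when food was withdrawn and fell when it was returned, and *Col15a1* did the reverse, while the 7 fibrillar and type VI genes did not pass the test in either step of run 1. The *Col4a1* promoter read 263, 257, 233 and 258 CPM in the 4 Pre mice, 296 to 419.9 CPM with a median of 330.4 in the 8 Mid mice, and 228, 194, 221 and 222 CPM in the 4 Post mice. The lowest Mid library was above the highest Pre and the highest Post library. From the Pre to Mid it rose 1.37-fold (log2 fold change 0.46, SE 0.098, FDR = 0.000938), and from the Mid to Post it fell 1.60-fold (log2 fold change -0.68, SE 0.099, FDR = 8.17e-06). FDR is the Benjamini-Hochberg adjusted p of edgeR's quasi-likelihood F test over all promoters, with a threshold of 0.05. Its partner *Col4a2* read 150.1, 158, 149 and 155 CPM before, 165 to 238 CPM with a median of 191 in the Mid group, and 126, 110.3, 124 and 159 CPM after. Again no Mid library reached down to the Pre or Post range. Of all promoters, 7.54% had Mid libraries all above the Pre libraries, and 7.98% had Post libraries all below the Mid libraries. It rose 1.29-fold (log2 fold change 0.36, SE 0.13, FDR = 0.0320) and then fell 1.51-fold (log2 fold change -0.60, SE 0.13, FDR = 0.000752). In a whole muscle, fewer cells of a type and less RNA per cell cannot be told apart, which holds for every difference given here.

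*Col15a1* read 21.3, 33.2, 29.5 and 23.4 CPM in the Pre group, 7.90 to 23.5 CPM with a median of 11.7 in the Mid group and 28.1, 20.5, 26.3 and 28.5 CPM in the Post group. Mid replicate 6, at 23.5 CPM, lay within the range of the Pre and Post mice, and the other 7 Mid libraries were below both. It fell 2.04-fold on entry (log2 fold change -1.03, SE 0.22, FDR = 0.000813) and rose 1.97-fold on refeeding (log2 fold change 0.97, SE 0.22, FDR = 0.00115). Of the 10 members 2 were called higher from the Pre to Mid, where 15.4% of the 10776 promoters tested were, and 1 was called lower, where 14.8% were. From the Mid to Post 1 was higher and 2 lower, where 17.5% and 17.5% of all promoters were called. These shares are near those of all promoters, so the set as a whole does not stand out in either step. The median log2 change of the members was -0.22 on entry and -0.053 on refeeding, against 0.0057 and -0.014 over all promoters.

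Among the fibrillar and type VI genes the closest to a call from the Pre to Mid was *Col6a2*, the α2 chain of type VI, at -0.35 (95% interval -0.69 to -0.014, FDR = 0.108), and *Col1a1* stood at -0.057 (95% interval -0.56 to 0.44). The Pre to Mid calls of both type IV genes were lost without TMM (0.37, FDR = 0.143 for *Col4a1* and 0.29, FDR = 0.376 for *Col4a2*). With upper-quartile scaling that of *Col4a1* was kept. The call of *Col4a2* was lost with upper-quartile scaling (0.29, FDR = 0.0766) and when any 1 Pre library, Mid replicate 1 or Mid replicate 3 was left out (FDR = 0.0532 to 0.0780). Without TMM the fall of *Col4a2* from the Mid to Post was -0.57, FDR = 0.0554.

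Some markers of other cell types also differed in this step, in which 15.4% of all promoters were called higher and 14.8% lower. In lists of 5 to 7 promoters, 1 called lower is near that share. Of the 6 endothelial promoters 4 fell from the Pre to Mid, among them *Kdr*, a receptor of vascular endothelial growth factor (-0.83), 1 rose (*Pecam1*, 0.26), and the summed level was 191 to 219.5 CPM in the Pre, 174 to 212 in the Mid and 194 to 209 in the Post group. None of the 6 was at 0. Pericyte and smooth muscle markers had 2 of 6 promoters lower, with sums of 571 to 676 and 593 to 779 CPM in the Pre and Mid groups. Adipocyte markers had 1 of 5 lower (sums 88.9 to 288 and 79.5 to 509.8 CPM) and Schwann cell markers 1 of 3 lower (sums 106 to 687 and 58.5 to 164 CPM). Tendon markers had 1 of 7 lower (*Scx*, -1.15) with sums of 618 to 657 and 434 to 794 CPM, fibroblast markers 1 of 7 lower, and macrophage and muscle fibre markers had 0 of 5 and 0 of 23 called. Their part in the changes of the basement membrane collagens was not tested.

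**Figure D2:**
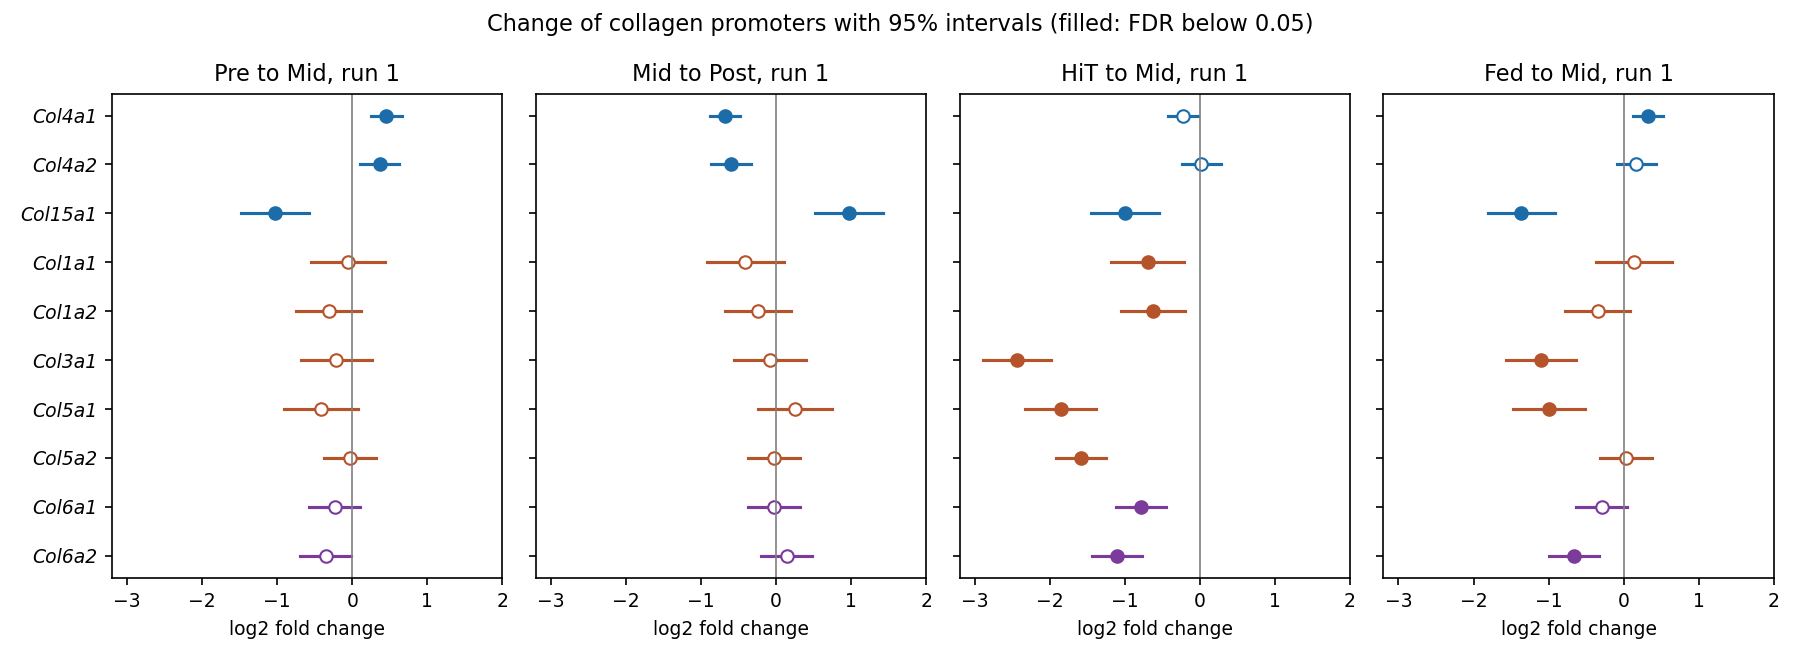
Log2 fold change of each collagen promoter in 4 comparisons of run 1, with 95% intervals as lines and filled points for an FDR below 0.05. *Col4a1*, *Col4a2* and *Col15a1* (blue) pass the test in both steps of torpor entry and refeeding. From the HiT to Mid 8 genes pass it below 0, *Col3a1* furthest at -2.44, and *Col4a1* at -0.22 lies below 0 without a call.

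Comparing the HiT with the Mid group sets mice fasted in the warm, without torpor, against mice that fasted and entered it. Here 8 of the 10 collagens were lower in the Mid group and 0 were higher, where 21.8% and 19.2% of all promoters were called. The median log2 change of the members was -0.89, against 0.018 over all promoters. The genes of types III and V had the largest changes. *Col3a1* read 1310, 953, 655 and 1127 CPM in the HiT mice and 112 to 307 CPM with a median of 186 in the Mid mice. All HiT libraries were far above all Mid libraries, and its level was 5.42-fold lower in the Mid group (log2 fold change -2.44, SE 0.22, FDR = 4.94e-09). Of all promoters, 11.4% had Mid libraries all below the HiT libraries, and 4 of the 10 members did. *Col5a1*, the α1 chain of type V, read 76.4, 74.3, 29.3 and 61.3 CPM against 9.46 to 22.1 CPM with a median of 17.4. Its groups did not overlap either, although HiT replicate 3 was close to the highest Mid library, and the difference was 3.61-fold (log2 fold change -1.85, SE 0.23, FDR = 5.51e-07). *Col5a2*, the α2 chain of type V, read 218, 165, 109 and 191 CPM against 43.9 to 73.3 CPM with a median of 54.8. It was 3.00-fold lower with no overlap (log2 fold change -1.59, SE 0.16, FDR = 2.64e-08).

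The type I genes differed less. *Col1a1* read 2944, 2177, 1210.1 and 2545 CPM in the HiT mice and 931 to 2103 CPM with a median of 1343 in the Mid mice. HiT replicate 3 lay below the Mid median, and the groups overlapped (log2 fold change -0.70, SE 0.24, FDR = 0.0210). *Col1a2* read 455, 346, 232 and 377 CPM against 138 to 318 CPM with a median of 214, again with HiT replicate 3 among the Mid mice (log2 fold change -0.62, SE 0.21, FDR = 0.0185). Both calls were lost without HiT replicate 1 (-0.51, FDR = 0.125 for *Col1a1*, -0.45, FDR = 0.116 for *Col1a2*) and without HiT replicate 4 (-0.59, FDR = 0.0852, and -0.56, FDR = 0.0626). The calls of *Col3a1*, *Col5a1* and *Col5a2* were kept under every alternative, and leaving out 1 library gave -2.58 to -2.26 for *Col3a1*.

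Both type VI genes and *Col15a1* were lower in the Mid than in the HiT group as well. *Col6a1* read 193, 166, 95.7 and 175 CPM in the HiT mice and 59.0 to 122 CPM with a median of 92.4 in the Mid mice, a 1.72-fold difference with HiT replicate 3 inside the Mid range (log2 fold change -0.78, SE 0.16, FDR = 0.000421). *Col6a2* read 108, 91.9, 56.1 and 94.9 CPM against 28.8 to 54.8 CPM with a median of 40.8. Its groups stood apart and the difference was 2.14-fold (log2 fold change -1.10, SE 0.16, FDR = 6.23e-06). *Col15a1* read 28.6, 31, 15.3 and 30.3 CPM in the HiT mice, and its difference was 2.00-fold (log2 fold change -1.0, SE 0.22, FDR = 0.000726), with HiT replicate 3 inside the Mid range. The type IV genes were the 2 members without a call. *Col4a1* read 442, 393, 382 and 398 CPM in the HiT mice, a range that overlapped the Mid group (log2 fold change -0.22, SE 0.095, FDR = 0.0641), and it was called lower when Mid replicate 1 (-0.27, FDR = 0.0217), Mid replicate 3, Fed replicate 1 or Dep replicate 3 was left out. *Col4a2* read 217, 214, 144 and 199.8 CPM, with a difference of 0.021 (95% interval -0.24 to 0.28).

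Collagens did not move alone in the HiT mice, and from the HiT to Mid 19.2% of all promoters were called higher and 21.8% lower. All 5 macrophage promoters (*Cd68*, *Csf1r*, *Mrc1*, *C1qa* and *Lyz2*; *Adgre1* had none) were lower in the Mid group, with a median log2 change of -2.19. Their summed level was 313, 232, 136 and 235 CPM in the 4 HiT libraries and 43.7 to 67.7 CPM in the Mid libraries. HiT replicate 3, with the lowest macrophage sum of the 4, was the lowest HiT library for all 10 collagens, and HiT replicate 1, with the highest sum, was the highest for 9. These extremes were not particular to macrophages. The tendon sum was likewise highest in HiT replicate 1 (800.3 CPM) and lowest in HiT replicate 3 (485 CPM). The endothelial sum was also lowest in HiT replicate 3 (160.3 CPM), while the fibroblast (947 CPM) and muscle fibre (20354 CPM) sums were highest there. *Birc5*, a gene of dividing cells and the only marker of its list with a promoter, read 5.04 CPM (HiT replicate 3) to 11.1 CPM (HiT replicate 1) in the HiT mice. In the Mid mice it read 0.0344 to 0.271 CPM. Of the 7 promoters of fibroblasts and fibro-adipogenic cells, the stromal cells of muscle, 5 were lower in the Mid group, such as *Mfap5* (-1.51) and *Pi16* (-1.05), whereas *Pdgfra* at -0.27 and *Gsn* at 0.34 were not called, and the sums overlapped at 692 to 947 and 633 to 1165 CPM. *Dpp4* of that list had no promoter. Tendon markers, which would mark tendon carried along with the muscle, had 1 of 7 promoters lower (*Scx*, -0.59), with sums of 485 to 800.3 and 434 to 794 CPM. None of the 6 endothelial promoters was called, and their sums were 160.3 to 190.2 CPM in the HiT and 174 to 212 CPM in the Mid group. Pericyte and smooth muscle promoters were called in both directions, 3 higher and 2 lower of 6, with sums of 459 to 547 and 593 to 779 CPM. Muscle fibre promoters had 6 higher and 1 lower of 23. The part of macrophages, dividing cells and stromal cells in the difference of the collagens was not tested.

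**Figure D3:**
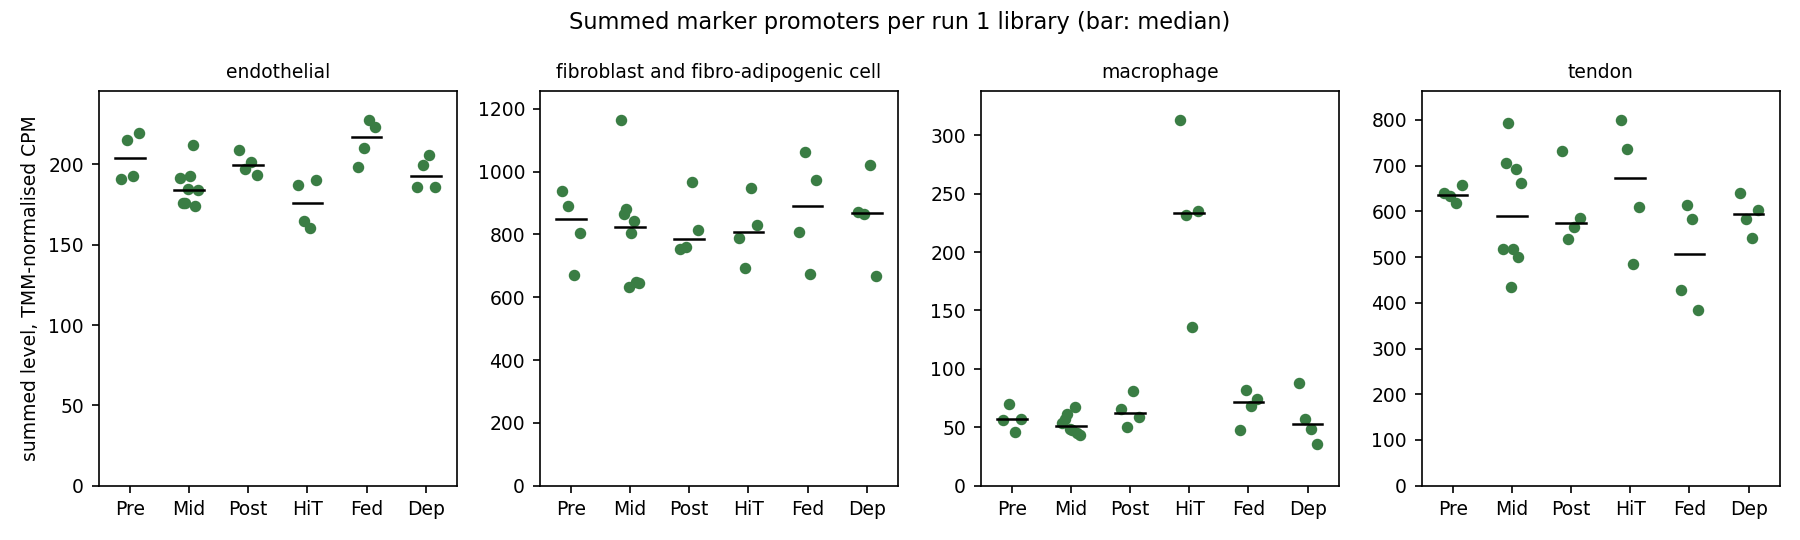
Summed level (TMM-normalised CPM) of the promoters of 4 marker lists in each library of run 1, by group, with bars for the medians. The macrophage sum was 136 to 313 CPM in the HiT group and 43.7 to 67.7 CPM in the Mid group, while the fibroblast, tendon and endothelial sums of these 2 groups overlapped.

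From the Fed to Mid, mice of day 2 with and without food were compared. In the Mid group 4 members were lower and 1 was higher, where 18.6% and 16.6% of all promoters were called. *Col15a1* read 27.9, 39.5, 33.6 and 34.6 CPM in the Fed mice, all above the highest Mid library, and was 2.58-fold lower in the Mid group (log2 fold change -1.37, SE 0.22, FDR = 2.71e-05). Of all promoters, 6.68% had Mid libraries all below the Fed libraries, and 2 of the 10 members did. *Col3a1* read 287, 589, 296 and 433 CPM and overlapped the Mid group, with a 2.15-fold difference (log2 fold change -1.10, SE 0.22, FDR = 0.000459). *Col5a1* read 28.2, 44.6, 25.8 and 34.4 CPM, apart from the Mid group, with a 1.99-fold difference (log2 fold change -0.99, SE 0.24, FDR = 0.00189), whereas its partner *Col5a2* read 33.9, 65.2, 65.6 and 57.4 CPM and was not called (0.028, 95% interval -0.32 to 0.38). *Col6a2* read 43.2, 81.7, 66.4 and 66.9 CPM and was 1.58-fold lower in the Mid group (log2 fold change -0.66, SE 0.16, FDR = 0.00281). Fed replicate 1 was the lowest Fed library for 8 of the 10 members and was also the shallowest library of run 1. *Col4a1* read 229, 303, 266 and 309 CPM and was the member that was higher in the Mid group (log2 fold change 0.32, SE 0.098, FDR = 0.0116). That call was lost without Fed replicate 1 (0.24, FDR = 0.0756), without TMM (0.20, FDR = 0.439) and with only these 2 groups in the fit (0.31, FDR = 0.0594). Beside these values, 5 of 6 endothelial promoters were lower and 1 was higher in the Mid group, macrophage promoters had 0 of 5 called (sums 47.8 to 82.0 CPM in the Fed group), and the tendon sum was 383 to 614 CPM in the Fed group, with 0 higher and 1 lower of 7 promoters. The fibroblast and fibro-adipogenic promoters had 2 higher and 3 lower of 7, with overlapping sums of 672 to 1061 and 633 to 1165 CPM, pericyte and smooth muscle promoters 0 higher and 2 lower of 6 and adipocyte promoters 0 higher and 1 lower of 5. Their part was not tested.

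The Dep mice, fasted and kept out of torpor by touch, did not differ detectably from the Mid mice in the level of any single collagen. From the Mid to Dep 0 of the 10 members were called by edgeR, 0 had an unadjusted p under 0.05 and DESeq2 called 0, where 1.16% and 0.872% of all promoters were called higher and lower. The 95% intervals of the 10 changes ran from -0.77 (*Col15a1*) to 0.57 (*Col3a1*). The Dep mice read 331, 312, 428 and 345 CPM for *Col4a1* and 10.7, 12, 11.9 and 8.39 CPM for *Col15a1*, inside the Mid range in both cases but for *Col4a1* in Dep replicate 3. Macrophage promoters had 0 of 5 called in this comparison. Against the Pre group, the Dep mice had *Col4a1* higher (log2 fold change 0.49, SE 0.11, FDR = 0.00190) and *Col15a1* lower (log2 fold change -1.32, SE 0.27, FDR = 0.000597), where 13.7% and 12.1% of all promoters were called in these directions. Beside these values, endothelial promoters had 1 higher and 3 lower of 6 in the Dep mice, pericyte and smooth muscle promoters 0 higher and 2 lower of 6, fibroblast and fibro-adipogenic promoters 1 higher and 0 lower of 7, tendon promoters 0 higher and 1 lower of 7 and macrophage promoters 0 higher and 0 lower of 5, and *Birc5* was higher (2.69). Their part was not tested. The call of *Col4a1* was lost without TMM (0.32, FDR = 0.264). *Col6a2*, which read 43.0, 33.0, 36.3 and 35.1 CPM in the Dep mice, all below the Pre mice, missed the threshold (log2 fold change -0.51, SE 0.19, FDR = 0.0557) and passed it with DESeq2 (-0.50, FDR = 0.040) and under 9 other alternatives. Such a separation was common, since 15.3% of all promoters had Dep libraries all below the Pre libraries.

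From the Pre to Post, which sets the baseline against the day after food returned, 0 members were called by edgeR, DESeq2 also called 0, and 1.05% and 0.798% of all promoters were called higher and lower. 1 member had an unadjusted p under 0.05, *Col1a2*, which read 248, 284, 318 and 291 CPM in the Pre and 239, 145, 184 and 209 CPM in the Post mice (log2 fold change -0.55, 95% interval -1.06 to -0.048, FDR = 0.322). The groups of *Col1a2*, and those of *Col1a1*, *Col4a1* and *Col6a1*, did not overlap, all lower in the Post mice, where 5.53% of all promoters had Post libraries all below the Pre libraries. The gaps were narrow. For *Col1a1* the lowest Pre library read 1237.2 CPM and the highest Post library 1236 CPM, and for *Col6a1* these were 100.9 and 98.7 CPM. The 95% intervals of the other 9 changes lay between -1.04 and 0.47. Post replicate 2 was the lowest Post library for 9 of the 10 members.

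Against the fed baseline, the HiT mice had 6 members higher and 0 lower, where 18.5% and 14.9% of all promoters were called. The rise was 4.67-fold for *Col3a1* (log2 fold change 2.22, SE 0.28, FDR = 1.33e-06), 2.94-fold for *Col5a2* (log2 fold change 1.56, SE 0.20, FDR = 1.73e-06), 2.71-fold for *Col5a1* (log2 fold change 1.44, SE 0.28, FDR = 0.000295), 1.68-fold for *Col6a2* (log2 fold change 0.75, SE 0.19, FDR = 0.00389), 1.60-fold for *Col4a1* (log2 fold change 0.68, SE 0.11, FDR = 3.79e-05) and 1.47-fold for *Col6a1* (log2 fold change 0.55, SE 0.19, FDR = 0.0293). The last was lost without HiT replicate 1, 2 or 4, among others, and without TMM the calls of *Col4a1* (0.51, FDR = 0.0591) and *Col6a2* (0.58, FDR = 0.0660) were lost too. Without HiT replicate 3, *Col1a1* (0.83, FDR = 0.0225) and *Col4a2* (0.45, FDR = 0.0161) were called higher as well. *Col15a1* stood at -0.032 (95% interval -0.56 to 0.50). All 5 macrophage promoters were higher in the HiT group here as well, with a median of 1.97 and Pre sums of 46.4 to 70.0 CPM. The fibroblast and fibro-adipogenic promoters had 4 higher and 0 lower of 7, with sums that overlapped, and *Birc5* of dividing cells was higher (6.40). Endothelial promoters had 0 higher and 3 lower of 6 (sums 191 to 219.5 CPM in the Pre and 160.3 to 190.2 CPM in the HiT mice), pericyte and smooth muscle promoters 0 higher and 2 lower of 6, tendon promoters 0 higher and 1 lower of 7, adipocyte promoters 0 higher and 1 lower of 5 and muscle fibre promoters 0 higher and 4 lower of 23. The part of these cells was not tested. From the Pre to Fed 1 member was higher and 0 lower, where 5.88% and 5.32% of all promoters were. That member, *Col3a1*, read 167, 296, 222 and 181 CPM in the Pre and 287, 589, 296 and 433 CPM in the Fed mice (log2 fold change 0.89, SE 0.27, FDR = 0.0354), and its call was lost without Fed replicate 2 (0.65, FDR = 0.179) and under 7 other alternatives.

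Run 2 repeated both steps, food withdrawal and its return, in other mice, with fewer and shallower libraries. *Col4a1* read 68.0 and 70.2 CPM in the 2 Pre mice, 86.2, 91.4, 82.4, 93.5 and 80.8 CPM in the 5 Mid mice and 54.5, 47.8 and 63.3 CPM in the 3 Post mice. *Col4a2* read 122 and 109 CPM, 125, 155, 142, 149 and 126 CPM and 99.7, 84.2 and 102 CPM in these groups. *Col15a1* read 42.4 and 39.4 CPM, 11.6, 27.6, 17.8, 17 and 14.7 CPM and 27.8, 30.5 and 39.6 CPM. For all 3 genes the Mid libraries did not overlap either of the other groups. With so few mice this was common, since of all promoters 15% had Mid libraries all above and 16.3% all below the Pre libraries, and 12% had Post libraries all below and 11.4% all above the Mid libraries. From the Mid to Post *Col4a1* fell (log2 fold change -0.65, SE 0.098, FDR = 0.00136), *Col4a2* fell (log2 fold change -0.55, SE 0.10, FDR = 0.00528) and *Col15a1* rose (log2 fold change 0.87, SE 0.23, FDR = 0.0262), where 8.65% and 7.73% of all promoters were called lower and higher. From the Pre to Mid *Col15a1* fell (log2 fold change -1.20, SE 0.25, FDR = 0.0164), and *Col4a1* at 0.33 (FDR = 0.0946) and *Col4a2* at 0.28 (FDR = 0.186) were not called, where 4.44% and 5.3% of all promoters were called lower and higher. The fibrillar and type VI genes were not called in either step of run 2. With all 38 libraries and run as a term, *Col1a1* was called lower from the Mid to Post (-0.51, FDR = 0.0460).

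The difference between the runs was tested directly, by an interaction of run and group. It was called for 0 of 10818 promoters (0%) on entry and for 0 of 10819 on refeeding, with 515 and 563 promoters at an unadjusted p under 0.05, none of them a member, and the likelihood ratio test also called 0 members in both. For *Col4a1* the Pre to Mid change in run 2 minus that in run 1 was -0.098 (log2, SE 0.15), for *Col4a2* it was -0.060 (log2, SE 0.16), and for *Col15a1* it was -0.14 (log2, SE 0.42). The lane of run 2 followed the groups in part. Both Pre and 4 of the 5 Mid libraries were on lane 3, and all 3 Post libraries were on lane 4 with Mid replicate 13. Within lane 4 that library read 80.8 CPM for *Col4a1*, 126 CPM for *Col4a2* and 14.7 CPM for *Col15a1*, on the same side of the 3 Post libraries as the other Mid mice. With lane as a term of the fit no member passed from the Mid to Post (-0.55, FDR = 0.0697 for *Col4a1*, -0.41, FDR = 0.184 for *Col4a2* and 1.15, FDR = 0.135 for *Col15a1*). Within lane 3 alone the Pre to Mid change of *Col15a1* was -1.12, FDR = 0.0593. The Mid to Post call of *Col15a1* was also lost without Post replicate 7 (0.70, FDR = 0.109) and without Post replicate 6 or Mid replicate 12 or 13, and its Pre to Mid call without either Pre library.

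**Figure D4:**
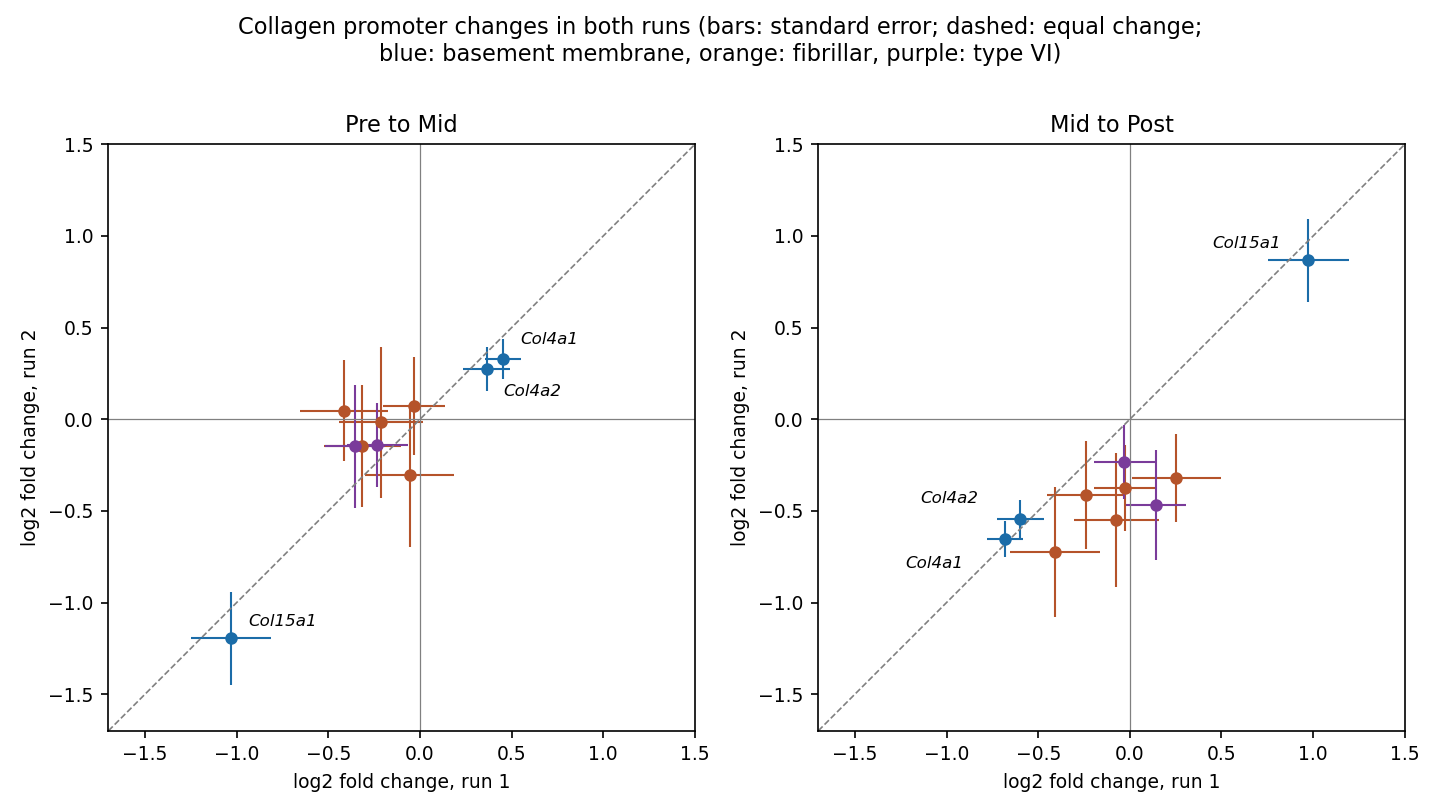
Log2 fold change of each collagen promoter in run 2 (vertical axis) against run 1 (horizontal axis), on food withdrawal (Pre to Mid) and on its return (Mid to Post), with standard errors as bars and a dashed line of equal change. *Col4a1*, *Col4a2* and *Col15a1* lie near that line in both panels, at 0.46 and 0.33 for *Col4a1* from the Pre to Mid, and the other 7 genes were called in neither run when each run was fitted by itself.

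The CPM of some members differed between the runs, but the runs were scaled separately, so these ratios are not differences in level. Over the Pre, Mid and Post groups *Col4a1* averaged 272 CPM in run 1 and 70.4 CPM in run 2, 3.86-fold lower, while *Col4a2*, which starts 125 bp away, averaged 159.8 and 117 CPM. The CPM of *Col6a2* was 1.66-fold higher in run 2 (46.2 and 76.5 CPM), and that of the other 7 differed by 1.19-fold to 1.42-fold in one direction or the other. The tag ratio of *Col4a1* to *Col4a2*, which no scaling changes, was 1.39 to 2.66 in the libraries of run 1 and 0.546 to 0.689 in those of run 2. The runs differed in mice and in sequencing. The labels name BWA for the counts of run 1 only, so the alignment may have differed too. These differences cannot be told apart.

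Chains that wind into one trimer were compared by the ratio of their tags in a library, a measure that needs no scaling between libraries. *Col4a1* had 1.5 to 1.86 times the tags of *Col4a2* in the Mid mice of run 1. The tags of *Col1a1* were 2.72 to 6.74 times those of *Col1a2* in run 1. For the 4 pairs of chains and 5 comparisons of run 1, 20 two-sided exact permutation tests were run with Benjamini-Hochberg adjustment over the 20, and 4 passed. The smallest p that 4 against 8 mice allow is 0.00404. The *Col6a1* to *Col6a2* ratio was 1.71 to 1.84 in the HiT and 1.96 to 2.45 in the Mid mice, with no overlap (log2 difference 0.32, two-sided exact permutation p = 0.00404, adjusted p = 0.0404), and 1.61 to 1.97 in the Fed mice (log2 difference 0.34, two-sided exact permutation p = 0.00808, adjusted p = 0.0404). The *Col5a1* to *Col5a2* ratio was 0.393 to 0.831 in the Fed and 0.192 to 0.420 in the Mid mice (log2 difference -1.07, two-sided exact permutation p = 0.00808, adjusted p = 0.0404). The *Col4a1* to *Col4a2* ratio was higher in the Dep mice, at 1.87 to 2.16, than in the Mid mice (log2 difference 0.19, two-sided exact permutation p = 0.00404, adjusted p = 0.0404). From the Pre to Mid the *Col4a1* to *Col4a2* ratio did not pass, with 1.57 to 1.75 in the Pre mice (log2 difference 0.093, two-sided exact permutation p = 0.145, adjusted p = 0.224). All 4 had an adjusted p just under the threshold, and leaving out 1 library gave 0 to 5 ratios that passed.

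**Figure D5:**
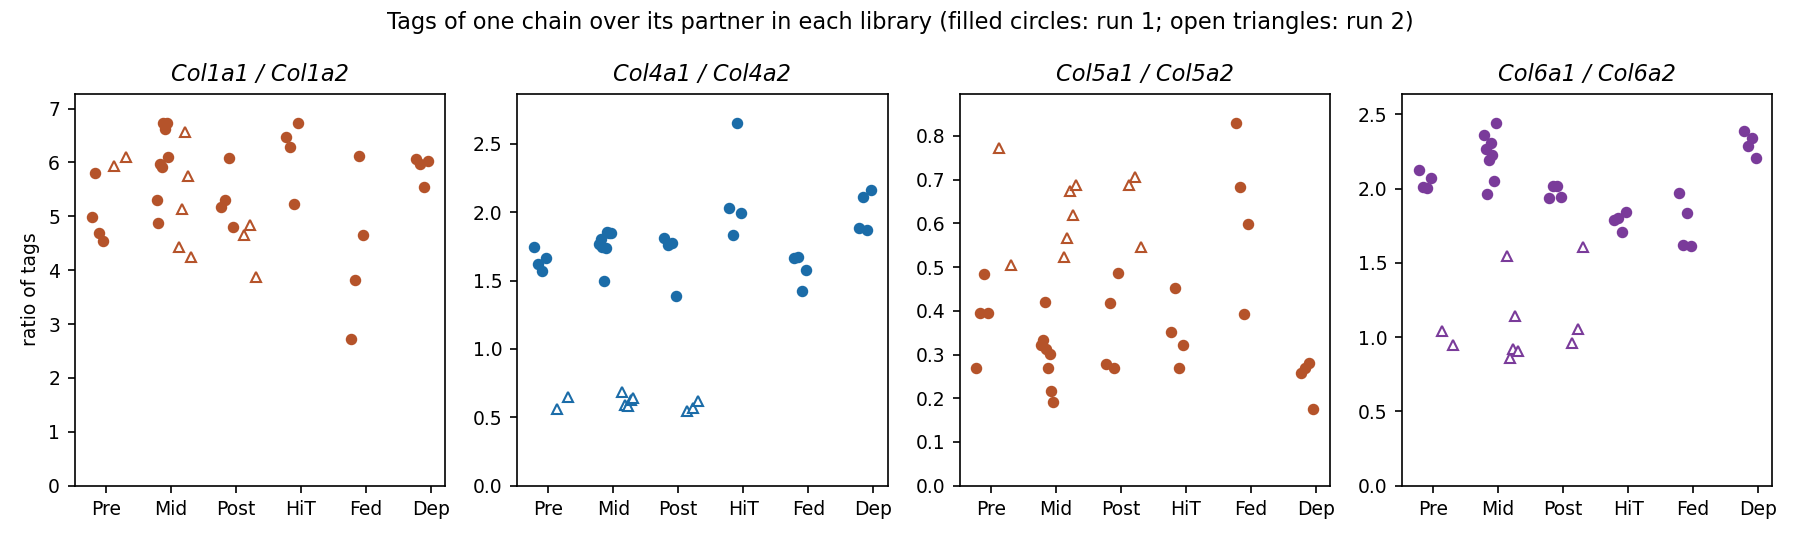
Ratio of tags between both chains of a pair in every library, by group, with run 1 as filled circles and run 2 as open triangles, each axis starting at 0. The *Col4a1* to *Col4a2* ratio is 1.39 to 2.66 in run 1 and 0.546 to 0.689 in run 2, and the *Col6a1* to *Col6a2* ratio has its lowest medians in the HiT and Fed mice among the groups of run 1.

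The other genes of the collagen pathway are given by list, as promoters called on food withdrawal (Pre to Mid) and against the warm mice (HiT to Mid) in run 1, beside 15.4% higher and 14.8% lower of all promoters in the first and 19.2% and 21.8% in the second. Of 34 other collagen genes 12 had a promoter. Their 13 promoters had 0 higher and 2 lower in the first and 1 higher and 5 lower in the second, with medians of -0.086 and -0.27. *Col8a2*, a short-chain network collagen, fell from the Pre to Mid (-1.22, FDR = 0.000488) and rose from the Mid to Post (1.18, FDR = 0.000556), and in run 2 it did so too (-1.48, FDR = 0.0325, and 1.24, FDR = 0.0311). *Col6a3*, the third chain of type VI, fell from the Pre to Mid (-0.58, FDR = 0.0212) and was lower in the Mid than in the HiT group (-1.93, FDR = 7.50e-09).

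Genes that fold and modify collagen in the endoplasmic reticulum had 2 higher and 5 lower of 18 promoters on food withdrawal (median -0.098) and 2 higher and 11 lower of 18 against the HiT mice (median -0.52). *Serpinh1*, which encodes the collagen chaperone HSP47, fell from the Pre to Mid (-0.73, FDR = 0.000240), rose from the Mid to Post (0.72, FDR = 0.000192) and was lower in the Mid than in the HiT group (-1.35, FDR = 1.67e-08), and in run 2 it was not called in either step (-0.43, FDR = 0.323, and 0.18, FDR = 0.645). *Creb3l1*, a membrane-bound transcription factor, also fell from the Pre to Mid (-0.98, FDR = 0.000168), as did *P4ha1*, a catalytic subunit of prolyl 4-hydroxylase (-0.48, FDR = 3.96e-05), which also fell in run 2 (-0.66, FDR = 0.0174). Genes that trim and cross-link collagen outside the cell had 1 higher and 1 lower of 10 and 1 higher and 8 lower of 10, with medians of -0.20 and -0.97. *Lox*, lysyl oxidase, which starts the cross-links of collagen and elastin, rose from the Pre to Mid (1.16, FDR = 0.000202) and fell from the Mid to Post (-1.32, FDR = 3.59e-05), in run 2 as well (1.43, FDR = 0.000220, and -1.40, FDR = 3.16e-05). Yet it was lower in the Mid than in the HiT group (-1.02, FDR = 0.000175). Its relative *Loxl1* fell from the Pre to Mid (-0.51, FDR = 0.0105).

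Genes of collagen breakdown and its inhibitors had 1 higher and 2 lower of 8 promoters on food withdrawal and 1 higher and 3 lower of 8 against the HiT mice. *Timp3*, a matrix-bound inhibitor of metalloproteinases, rose from the Pre to Mid (0.64, FDR = 1.36e-05) and was higher in the Mid than in the HiT group (0.95, FDR = 2.00e-08), while *Mmp15*, a membrane-bound metalloproteinase, fell from the Pre to Mid (-0.85, FDR = 0.000580), as did *Mrc2*, an endocytic collagen receptor (-0.43, FDR = 0.0361). The partners of type IV in the basement membrane had 2 higher and 0 lower of 11 on food withdrawal and 3 higher and 3 lower of 11 against the HiT mice. The 2 that rose were the laminin chains *Lama5* (0.47, FDR = 0.0108) and *Lama2* (0.46, FDR = 0.00155), the latter the main laminin α chain of muscle fibres, which both fell from the Mid to Post (-0.73, FDR = 0.000202, and -0.47, FDR = 0.000958). Without TMM 0 of the 11 were called from the Pre to Mid. The median of this list from the Pre to Mid was 0.061 and changed sign with the scaling (-0.024 without TMM, -0.012 with upper-quartile scaling).

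Genes of the matrix around fibrils had 1 higher and 2 lower of 15 promoters on food withdrawal and 1 higher and 8 lower of 15 against the HiT mice, with medians of -0.054 and -0.66. *Tnc*, tenascin C, a matrix protein of injured and loaded tissue, was lower in the Mid than in the HiT group by more than any collagen (-5.24, FDR = 5.48e-13) and fell from the Pre to Mid (-0.98, FDR = 0.0111). Of the others called from the Pre to Mid, *Thbs2*, a thrombospondin, rose (0.41, FDR = 0.0146) and *Prelp*, a small leucine-rich proteoglycan, fell (-0.36, FDR = 0.00743). Receptors that hold cells to collagen and laminin had 0 higher and 3 lower of 7 and 1 higher and 2 lower of 7. *Itga7*, the laminin-binding integrin of muscle fibres, fell from the Pre to Mid (-0.50, FDR = 0.000655) and rose from the Mid to Post (0.92, FDR = 1.91e-07), *Itga11*, a collagen-binding integrin of fibroblasts, also fell from the Pre to Mid (-0.43, FDR = 0.00552), and so did *Sgcd*, δ-sarcoglycan of the dystrophin complex (-0.19, FDR = 0.0208). Without TMM or with upper-quartile scaling the counts of these 7 lists in both comparisons moved by at most 2 promoters in a direction. Of the 18 pathway genes named here, all of them called from the Pre to Mid in run 1, 6 were called in that step of run 2 as well, in the same direction (*Col8a2*, *P4ha1*, *Lox*, *Mmp15*, *Timp3* and *Lama2*), and the other 12 were not, such as *Col6a3* (-0.14, FDR = 0.840), *Creb3l1* (-0.49, FDR = 0.193), *Tnc* (-0.81, FDR = 0.339) and *Loxl1* (-0.24, FDR = 0.385).

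Across the 28 libraries of run 1 the fibrillar and type VI genes moved together, and the type IV genes moved with each other but less with the rest. Pearson's r of log2 CPM over the 21 pairs of fibrillar and type VI genes was 0.546 to 0.952 with a median of 0.822, and 0.501 to 0.958 with a median of 0.847 when each group's mean was taken out first. The 16 pairs of *Col4a1* or *Col4a2* with one of the other 8 members had r from -0.331 to 0.579, median 0.338, and 0.309 to 0.681, median 0.458, with each group's mean taken out. Between *Col4a1* and *Col4a2* themselves r was 0.824, and 0.769 with the means taken out. With the fibrillar and type VI genes *Col15a1* had r from 0.255 (*Col1a1*) to 0.772 (*Col6a2*). With the means taken out these values ran from 0.657 (*Col1a1*) to 0.849 (*Col3a1*). The libraries share their scaling, their groups and the makeup of the muscle, so these values are a description. A few libraries set the order within groups, since Mid replicate 6 was the highest Mid library for 8 of the 10 members and Mid replicate 7 the lowest for 9. Of 10766 other promoters, those whose log2 CPM followed the mean of the members' standardised log2 CPM most closely included *Bgn* (r = 0.910), *H2-Eb1* (0.898), *Rcn1* (0.890), *Loxl2* (0.889), *Coro1c* (0.887), *Cd74* (0.885), *C1qtnf6* (0.882), *C1qa* (0.882) and *Vim* (0.881). *Bgn* encodes biglycan, a matrix proteoglycan, and *Vim* vimentin, whereas *H2-Eb1* and *Cd74* belong to antigen presentation by MHC class II and *C1qa* to complement.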

How the data were processed

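CAGE libraries of soleus RNA (RNeasy Fibrous Tissue kit, 1 library per mouse, nAnT-iCAGE) were sequenced by the study on a NextSeq or a HiSeq. Per the labels and methods, the authors trimmed the reads, aligned them to mm10 with BWA and HISAT2 and clustered start sites, and deposited raw tag counts per cluster for 38 libraries beside TPM values. The deposited TPM served only to give the share of mapped tags in clusters. The 10819 clusters held 93.1% to 95.6% of the mapped tags of a library, and 9615 lay within 500 bp of a GENCODE vM21 5′ end on their strand.

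The counts were fitted with edgeR 4.0.16 (R 4.3.3, limma 3.58.1), by TMM and the quasi-likelihood F test over all clusters with any tag, with an FDR threshold of 0.05. The 28 libraries of run 1 shared 1 fit and the 10 of run 2 another, and the runs were compared by an interaction with run as a term. SE is the log2 fold change over the root of F. Ratios of chains (0.5 added to each count) were tested by two-sided exact permutation with scipy 1.17.1. Further tools were DESeq2 1.42.0, Python 3.11.15, numpy 2.4.6 and pandas 2.3.3. Alternatives were the likelihood ratio test, DESeq2, filterByExpr, no TMM, upper-quartile scaling, only the groups compared, the replicate number as a block, lane, both runs in 1 fit, and each library left out.

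The members, gene lists and markers were chosen with earlier results of these data known. All members were named, and of each pathway list the 3 called promoters with the largest change from the Pre to Mid. *Col1a2* from the Pre to Post, *Col6a2* from the Pre to Dep, *Birc5* and the other markers given by name were picked after their values were seen. Of the 10 promoters most like the members, 1 is not reported here. Promoter windows came from RefSeq (GRCm38.p6), where 8 of 10 member genes matched. The closest pair of libraries of 72 differed by far more than sampling noise, so no library was counted as a copy. On simulated counts with 200 promoters changed by 1 on the log2 scale, the fit of run 1 recovered 81% to 93.5% with 6 to 13 false calls per comparison. Smaller changes, such as those of *Col4a1* and *Col4a2* from the Pre to Mid, were not simulated. Libraries are separate mice, and p-values measure the spread between them.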

Additional observations from a re-analysis of the deposited data

Results flagged for a closer look

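Within a group of 4 mice, 4 values stood apart from the other 3 by Dixon's test at its 95% level, of 70 groups tested, and chance alone flags about 1 group in 20. Dep replicate 1 was high for both type I chains, with *Col1a1* at 1772 CPM against 1153 to 1251 CPM in the other Dep mice, and *Col1a2* at 292.6 CPM against 197 to 208 CPM. Post replicate 4 was high for *Col5a1*, at 28.4 CPM against 16.3 to 17.5 CPM. HiT replicate 3 was low for *Col15a1*, at 15.3 CPM against 28.6 to 31 CPM, and it was also the lowest HiT library for the other 9 members.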

How the results depend on the processing

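The 32 calls of members kept their sign in all 1055 alternatives run for them, 17 were kept under every one and 15 were lost under some. Of the 2475 alternatives for changes that were not called, 81 had the other sign. Many alternatives of both kinds left out a library of neither group compared. That moved the log2 change little or not at all, so its sign was all but fixed there. The likelihood ratio test, DESeq2 and filterByExpr left every count of called members within 1.5 times. Without TMM the members called were 1 from the Pre to Mid, 3 from the Pre to HiT and 0 from the Pre to Fed, and the median change of all promoters moved to 0.11 from the HiT to Mid, -0.12 from the Fed to Mid, -0.13 from the Pre to HiT and -0.18 from the Pre to Dep. Over all promoters 1659 higher and 1594 lower were called from the Pre to Mid, 1282 higher and 2308 lower with upper-quartile scaling and 534 higher and 924 lower without TMM. From the Mid to Post the counts were 1881 higher and 1890 lower, and 2535 higher and 1471 lower with upper-quartile scaling. From the Fed to Mid they were 1788 higher and 2009 lower, 1395 higher and 2409 lower and 509 higher and 1672 lower, from the Pre to HiT 1997 higher and 1607 lower, 1508 higher and 2139 lower and 584 higher and 1390 lower, and from the Pre to Dep 1479 higher and 1304 lower, 1171 higher and 1841 lower and 365 higher and 1079 lower, in the same order. From the HiT to Mid they were 2070 higher and 2352 lower, and 1313 higher and 1010 lower without TMM. With only the 2 groups compared in the fit, 4 members were called from the Pre to Dep and 0 from the Pre to Fed. In run 2, 0 members were called from the Pre to Mid within lane 3 and 0 from the Mid to Post with lane as a term. Same-numbered mice of different groups did not deviate together (60 pairs, r from -0.413 to 0.501, 20 over 0.1), and with the replicate block the members called were 3, 3, 0, 8, 5, 0, 6, 1 and 2 in the 9 comparisons of run 1, as without it. The cause of each of these changes was not tested.

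Without TMM, the log2 change had the other sign for *Col5a2*, Mid to Post (0.0042), *Col6a1*, Mid to Post (2.1e-05), *Col1a1*, Fed to Mid (-0.024), *Col5a2*, Fed to Mid (-0.12), *Col4a1*, Mid to Dep (-0.052), *Col5a2*, Pre to Dep (-0.039). With upper-quartile scaling, the log2 change had the other sign for *Col5a2*, Mid to Post (0.043), *Col6a1*, Mid to Post (0.036), *Col5a2*, Fed to Mid (-0.017). With the replicate number as a replicate block, the log2 change had the other sign for *Col5a2*, Mid to Post (0.020), *Col1a1*, Fed to Mid (-0.040), *Col5a2*, Fed to Mid (-0.026), *Col1a1*, Mid to Dep (0.14), *Col1a2*, Mid to Dep (0.024), *Col4a1*, Mid to Dep (-0.070). With all 38 libraries and run as a term, the log2 change had the other sign for *Col6a2*, Mid to Post (-0.074). With lane as a term, the log2 change had the other sign for *Col3a1*, Pre to Mid, run 2 (0.15), *Col1a1*, Mid to Post, run 2 (0.31), *Col1a2*, Mid to Post, run 2 (0.28), *Col3a1*, Mid to Post, run 2 (0.42), *Col5a1*, Mid to Post, run 2 (0.17), *Col5a2*, Mid to Post, run 2 (0.28), *Col6a1*, Mid to Post, run 2 (0.27). Within lane 3, the log2 change had the other sign for *Col3a1*, Pre to Mid, run 2 (0.16).

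Leaving out 1 library at a time gave 2 to 3 members called from the Pre to Mid, 6 to 9 from the HiT to Mid, 5 to 8 from the Pre to HiT, 0 to 1 from the Pre to Fed, and 0 to 2 from the Pre to Mid of run 2, and 0 to 5 chain ratios that passed. These log2 differences, none of them called, spanned 0: *Col1a1*, Pre to Mid (-0.16 to 0.021), *Col5a2*, Pre to Mid (-0.086 to 0.016), *Col3a1*, Mid to Post (-0.16 to 0.074), *Col5a2*, Mid to Post (-0.087 to 0.095), *Col6a1*, Mid to Post (-0.10 to 0.050), *Col5a2*, Pre to Post (-0.11 to 0.063), *Col15a1*, Pre to Post (-0.15 to 0.064), *Col4a2*, HiT to Mid (-0.076 to 0.11), *Col1a1*, Fed to Mid (-0.087 to 0.31), *Col5a2*, Fed to Mid (-0.15 to 0.12), *Col1a1*, Mid to Dep (-0.20 to 0.085), *Col1a2*, Mid to Dep (-0.17 to 0.069), *Col3a1*, Mid to Dep (-0.035 to 0.23), *Col4a1*, Mid to Dep (-0.073 to 0.088), *Col5a1*, Mid to Dep (-0.20 to 0.074), *Col15a1*, Pre to HiT (-0.13 to 0.15), *Col1a1*, Pre to Fed (-0.37 to 0.030), *Col1a2*, Pre to Fed (-0.24 to 0.13), *Col5a2*, Pre to Fed (-0.15 to 0.11), *Col6a1*, Pre to Fed (-0.031 to 0.17), *Col3a1*, Pre to Dep (-0.25 to 0.065), *Col1a2*, Pre to Mid, run 2 (-0.31 to 0.012), *Col3a1*, Pre to Mid, run 2 (-0.23 to 0.19), *Col5a1*, Pre to Mid, run 2 (-0.11 to 0.23), *Col5a2*, Pre to Mid, run 2 (-0.056 to 0.22), *Col6a2*, Pre to Mid, run 2 (-0.34 to 0.023), the ratio of *Col4a1* to *Col4a2*, Mid to Post (-0.11 to 0.019), the ratio of *Col1a1* to *Col1a2*, HiT to Mid (-0.11 to 0.0076), the ratio of *Col1a1* to *Col1a2*, Mid to Dep (-0.067 to 0.0049). Run 2 had the lowest depth (9359994 tags in its shallowest library) and 2 Pre mice, which limits the size of change it could show.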
